A study of Mus musculus with 6 samples.

Results

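The 9 genes described here mark the inner medulla of the kidney or serve its adaptation to high osmolality. They are Slc14a2, Slc4a11, Akr1b3, Slc5a3, Slc6a6, Slc6a12, Cryab, Cldn4 and Nfat5. They were taken from a list of names that was drawn up with earlier results of these data known, and all 9 were found among the 54146 genes of the deposited table and among the 14386 that passed the filter on low counts. RNA was sequenced in bulk from frozen mouse kidney in 3 groups of 2 libraries, all of which carry batch number 1. Mice of every group, the controls included, had unilateral nephrectomy at 6 weeks of age and then a diet with 4% salt. WT mice are the controls. G0APOL1 and G2APOL1 mice carry the human apolipoprotein L1 gene in its G0 or its G2 form. The series title calls the expression inducible and restricted to a cell type, and the labels' prefix EC for both genotypes is not spelled out, so the driving promoter is not given here. The labels do not say whether a group's 2 libraries are from different animals, and p-values therefore measure only the spread between these samples. The labels name the kidney as a whole and give no zone.

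The inner medulla is the hypertonic core of the kidney, where urea and salt accumulate so that urine can be concentrated. Its cells balance that salinity with organic osmolytes, namely sorbitol, myo-inositol, taurine and betaine, which they make or import. The transcription factor Nfat5 (also TonEBP) drives many of these genes by binding a tonicity-responsive element, and small heat shock proteins and tight junctions protect the cells. In whole-organ RNA, fewer cells of a type and less RNA per cell cannot be told apart.

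Slc14a2, Slc4a11, Cryab and Cldn4 fell against WT in both transgenic groups. Of the 4 osmolyte genes, Slc6a12 fell in G0APOL1, and Akr1b3, Slc5a3 and Slc6a6 passed in neither group. Of the 9 genes, 4 passed in G2APOL1 against WT, all lower, where 3.62% of all genes tested were called lower and 8.19% were called in either direction. In G0APOL1 against WT 5 passed, all lower, where 3.68% of all genes were called lower and 8.17% in either direction. The median log2 fold change of the 9 genes was -1.44 in G2APOL1 and -1.84 in G0APOL1, against -0.04 and 0.02 over all genes tested. Both comparisons share the WT libraries. Without G2APOL1 replicate 1 the count in G2APOL1 was 1 (Cryab), and without G2APOL1 replicate 2 it was 2. Calls are adjusted p-values under 0.05 in edgeR's quasi-likelihood test over all 14386 genes, and levels are normalised read counts in CPM, which sets each library to the same scaled total.

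**Figure D1:**
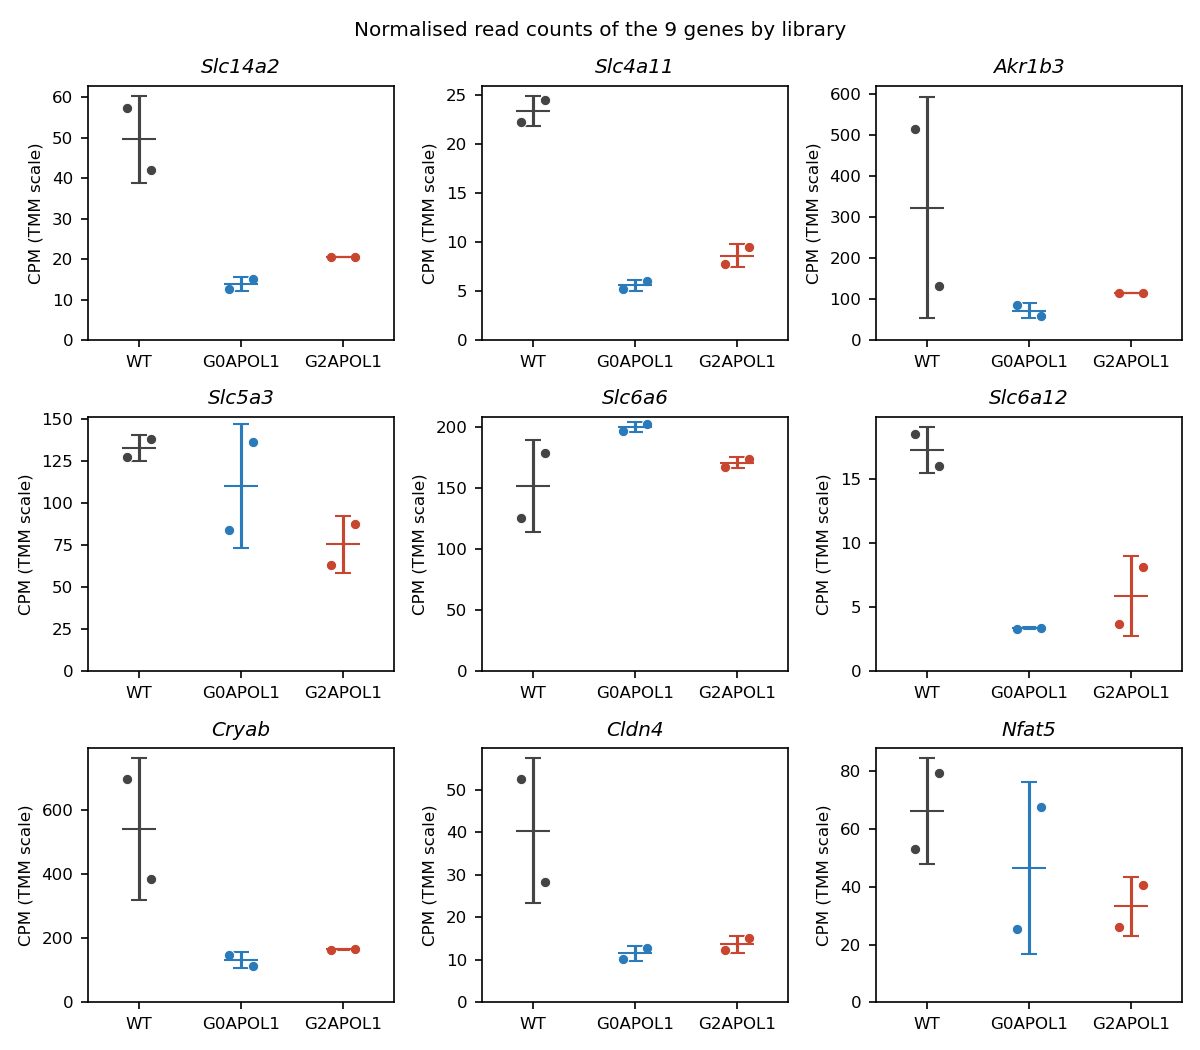
Normalised read counts of the 9 genes (CPM, linear axes from 0) in each of the 6 libraries (points), 1 panel per gene, with the mean of each group as a horizontal line and its SD (n = 2) as a bar. Slc14a2 lay at 57.2 and 42.1 CPM in WT and between 12.6 and 20.6 CPM in the 4 transgenic libraries, whereas Slc6a6 was lowest in a WT library.

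Slc14a2 encodes the urea transporters of the inner medullary collecting duct and the thin descending limb, and it serves as the defining marker of that zone. Its level was 57.2 and 42.1 CPM in the WT libraries, 12.6 and 15.1 for G0APOL1, and 20.6 and 20.5 for G2APOL1. Both WT libraries were above all 4 transgenic ones, and the G0APOL1 pair was below the G2APOL1 pair. Slc14a2 fell by 1.84 ± 0.27 in G0APOL1 (a log2 fold change with its SE, like every change given here, with n = 2 in each group; edgeR adjusted p = 0.00143) and by 1.27 ± 0.26 in G2APOL1 (adjusted p = 0.0107). The G2APOL1 call was lost without either G2APOL1 library, at adjusted p = 0.116 without replicate 1 and 0.0990 without replicate 2. Slc14a2 lies on chromosome 18 at 78146148-78596942, minus strand (GRCm38, as for all positions given here).

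Slc4a11, a membrane transporter of the SLC4 family, marks the thin descending limb in mouse kidney. It was measured at 22.3 and 24.5 CPM in WT, 5.23 and 6.03 for G0APOL1, and 7.80 and 9.51 for G2APOL1, so that the 3 groups did not overlap. It fell by 2.05 ± 0.36 in G0APOL1 (edgeR adjusted p = 0.00408) and by 1.44 ± 0.35 in G2APOL1 (adjusted p = 0.0246). In G2APOL1 it no longer passed on leaving out WT replicate 2 (adjusted p = 0.0772), G2APOL1 replicate 1 (0.278) or G2APOL1 replicate 2 (0.1375). The gene spans 130684113-130697519 on chromosome 2, minus strand.

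Cldn4, a claudin of the tight junctions of the collecting duct, was at 52.5 and 28.4 CPM in WT, 10.3 and 12.8 for G0APOL1, and 12.3 and 15.1 for G2APOL1. The lower WT library was still above every transgenic library, while the G0APOL1 and G2APOL1 ranges overlapped. Cldn4 fell by 1.81 ± 0.34 in G0APOL1 (edgeR adjusted p = 0.00567) and by 1.57 ± 0.33 in G2APOL1 (adjusted p = 0.0123). In G2APOL1 Cldn4 did not pass on leaving out WT replicate 1 (log2 fold change -1.05, adjusted p = 0.0758) or G2APOL1 replicate 1 (-1.39, adjusted p = 0.125). The gene has 1 exon on chromosome 5 at 134945119-134946934, minus strand.

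Cryab encodes alpha B-crystallin, a small heat shock protein that is abundant in medullary cells. It had 694 and 383 CPM in WT, 148.3 and 114.4 for G0APOL1, and 164.3 and 166.2 for G2APOL1. The WT libraries differed from each other and both stood above the transgenic ones. Cryab fell by 2.04 ± 0.26 in G0APOL1 (edgeR adjusted p = 0.000633) and by 1.70 ± 0.26 in G2APOL1 (adjusted p = 0.0021). Both calls held in every alternative run, with adjusted p of at most 0.0143 and 0.0194. The gene lies on chromosome 9 at 50751325-50756636, plus strand, and 17.0% of its exon bases (252) also belong to Hspb2 on the other strand. Whether the counting used strand is not stated. Hspb2, another small heat shock protein gene, had between 1.42 and 5.65 CPM in the 6 libraries and did not pass in either comparison with WT (edgeR adjusted p = 0.249 and 0.289).

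Among the osmolyte genes, Slc6a12 encodes the betaine and GABA transporter BGT1, a known target of Nfat5. It was measured at 18.5 and 16.04 CPM in WT, 3.31 and 3.43 for G0APOL1, and 3.69 and 8.12 for G2APOL1. The groups did not overlap, and G2APOL1 replicate 2 was the highest transgenic library. Slc6a12 fell by 2.36 ± 0.48 in G0APOL1 (edgeR adjusted p = 0.00906), a call lost without G0APOL1 replicate 1 (0.0555) or replicate 2 (0.0526). In G2APOL1 the log2 fold change was -1.56 ± 0.46 (adjusted p = 0.0539), which passed with DESeq2 (0.0361), limma-voom (0.0199) and no filter on low counts (0.0170). Without G2APOL1 replicate 1 that change was -1.06, and without G2APOL1 replicate 2 it was -2.20. These are low counts, of 29 to 76 reads per transgenic library and 146 and 187 in WT. The gene lies on chromosome 6 at 121343076-121365775, plus strand.

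Promoter windows from RefSeq (GRCm38.p6), of 250 bases before to 50 after an annotated start, were found for Slc5a3, Slc6a12, Cldn4 and Nfat5, with 8 windows in all, 5 of them at different annotated starts of Slc6a12 and 1 for each other gene. They were searched on both strands for the consensus of the tonicity-responsive element, the site Nfat5 binds. A match was found in 1 of the 5 Slc6a12 windows, and in none of the other windows, against 4.96% of the 32851 promoter windows of all genes (1628 windows). It is shown because it is the window that holds a match; the capitals mark the match, which begins 75 bases before the start.
Slc6a12 promoter window, chr6:121342324-121342623, plus strand: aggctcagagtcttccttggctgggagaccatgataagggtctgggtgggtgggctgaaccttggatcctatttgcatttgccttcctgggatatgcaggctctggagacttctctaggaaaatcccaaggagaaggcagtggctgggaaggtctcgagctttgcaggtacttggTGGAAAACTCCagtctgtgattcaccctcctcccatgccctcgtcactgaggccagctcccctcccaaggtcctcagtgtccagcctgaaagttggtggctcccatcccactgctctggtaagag
The shorter core TGGAAA, which lies within this match, is found in 21.4% of all windows. A match describes these letters only.

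Akr1b3, aldose reductase, makes sorbitol from glucose. Its level was 514 and 132.5 CPM in WT, 85.8 and 59.0 for G0APOL1, and 115.4 and 114.8 for G2APOL1. Both WT libraries were above all transgenic ones, but WT replicate 1 stood far above WT replicate 2. The log2 fold changes were -2.16 ± 0.73 in G0APOL1 (edgeR adjusted p = 0.202) and -1.49 ± 0.71 in G2APOL1 (adjusted p = 0.337), and neither passed. The G0APOL1 change passed with DESeq2 (0.0458) and limma-voom (0.0146). The G2APOL1 change passed with neither (0.230 and 0.0907). Leaving out either WT library moved these values. Without WT replicate 1 the values were -0.86 in G0APOL1 (adjusted p = 0.0145) and -0.19 in G2APOL1 (adjusted p = 0.620), and without WT replicate 2 they were -2.82 (8.47e-07) and -2.14 (1.17e-05). The gene lies on chromosome 6 at 34302434-34317478, minus strand. Its reads may be shared with 4 gene models at least 95% identical to it over the aligned part, which in Gm38056 is 26.9% of the transcript. Summed with these, it had 684 and 210.0 CPM in WT, 90.5 and 61.4 for G0APOL1, and 151.7 and 154.5 for G2APOL1, and the sum also missed the threshold in both comparisons (edgeR adjusted p = 0.0872 and 0.222).

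Slc5a3 encodes the sodium-coupled myo-inositol transporter SMIT1. It had 127.3 and 137.9 CPM in WT, 84.2 and 135.9 for G0APOL1, and 63.4 and 87.4 for G2APOL1. G2APOL1 lay below WT, and G0APOL1 spread over both ranges. The log2 fold change in G2APOL1 was -0.82 ± 0.24 (edgeR adjusted p = 0.0527), and it passed with DESeq2 (0.0242), limma-voom (0.0371) and no filter on low counts (0.00316). Without G2APOL1 replicate 1 it was -0.57, and without G2APOL1 replicate 2 it was -1.04. In G0APOL1 it was -0.27 ± 0.24 (adjusted p = 0.576). The gene, on chromosome 16 at 92058322-92087473, plus strand, shares 1.46% of its exon bases (159) with Mrps6, a mitochondrial ribosomal protein gene of the same strand. Mrps6 was at 146.0 and 147.4 CPM in WT and between 85.9 and 94.97 CPM in the transgenic libraries, and fell by 0.70 ± 0.17 in both groups (edgeR adjusted p = 0.0266 in G0APOL1 and 0.0259 in G2APOL1). Both Mrps6 calls were lost on leaving out single libraries, the G0APOL1 call without any 1 of the 4 transgenic libraries (up to 0.115) and the G2APOL1 call without either G2APOL1 library (up to 0.343).

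Slc6a6, the taurine transporter, went another way. It had 125.2 and 178.2 CPM in WT, 196.5 and 202.2 for G0APOL1, and 167.2 and 173.9 for G2APOL1. G0APOL1 lay above both other groups, and the G2APOL1 libraries lay within the WT range. The log2 fold changes, 0.39 ± 0.20 in G0APOL1 (edgeR adjusted p = 0.262) and 0.17 ± 0.20 in G2APOL1 (adjusted p = 0.673), did not pass. Without WT replicate 2 the G0APOL1 value was 0.67 (adjusted p = 0.0351). The gene lies on chromosome 6 at 91684053-91759066, plus strand.

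Nfat5 itself was measured at 53.1 and 79.1 CPM in WT, 25.5 and 67.4 for G0APOL1, and 26.0 and 40.5 for G2APOL1. G2APOL1 lay below WT, whereas G0APOL1 held both the lowest library of all 6 and 1 within the WT range. The log2 fold changes were -0.51 ± 0.45 in G0APOL1 (edgeR adjusted p = 0.600) and -0.99 ± 0.46 in G2APOL1 (adjusted p = 0.255). For G2APOL1 against WT, Nfat5 stood at -0.68 without G2APOL1 replicate 1 and at -1.33 without G2APOL1 replicate 2. In G2APOL1 it passed without G0APOL1 replicate 1 (0.0467) or replicate 2 (0.0488), and with no filter on low counts (0.00199). These are levels of its RNA, and the protein's abundance and activity were not measured. The gene lies on chromosome 8 at 107293470-107379517, plus strand.

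**Figure D2:**
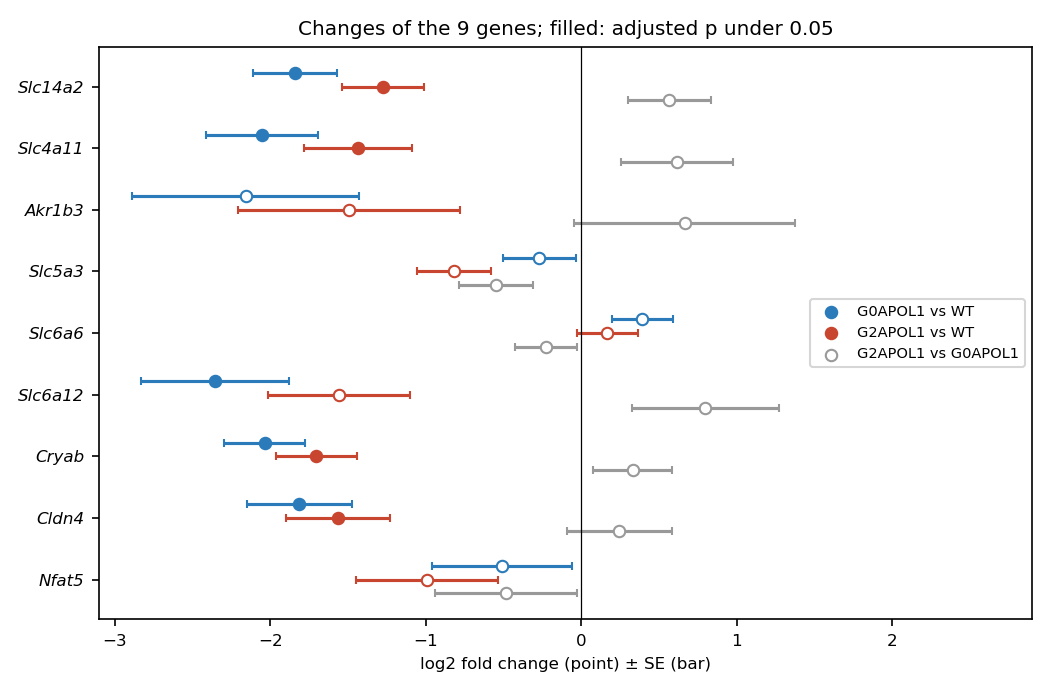
Log2 fold changes (points) with standard errors (bars) of the 9 genes in the 3 comparisons, filled where the adjusted p was under 0.05. Slc14a2, Slc4a11, Cryab and Cldn4 are filled and lower in both comparisons with WT, Slc6a12 is filled in G0APOL1 alone (-2.36 against -1.56 in G2APOL1), and no gene is filled between the transgenic groups.

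None of the 9 genes passed in G2APOL1 against G0APOL1, where 0.48% of all genes tested were called. With edgeR 1 of the 9, Slc5a3, had an unadjusted p under 0.05, as 6.74% of all genes did (0.0387, log2 fold change -0.55 ± 0.24), and DESeq2 and limma-voom called 0. Slc14a2 was at 0.57 ± 0.27 (edgeR adjusted p = 0.756), Slc4a11 at 0.62 ± 0.36 (0.842), Slc6a12 at 0.80 ± 0.47 (0.847) and Cryab at 0.33 ± 0.25 (0.912). Those 4 and Akr1b3, 5 genes in all, had both G2APOL1 libraries above both G0APOL1 ones, an order that 19.7% of all genes tested share. The median of the 9 genes was 0.33, against -0.02 over all genes. Against WT, 8 of 9 genes had both G2APOL1 libraries below both WT ones, where 28.1% of all genes did, and 6 had both G0APOL1 libraries below, where 24.3% did.

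The order of the genes by level was compared on the scale of CPM per kilobase of the principal transcript. In WT, Cryab stood at 482 ± 197 (mean ± SD, n = 2) and Akr1b3 at 233 ± 195, followed by Slc6a6 at 24.5 ± 6.06 and Cldn4 at 22.3 ± 9.39. Slc14a2 at 12.3 ± 2.65 and Slc5a3 at 12.2 ± 0.685 came next, then Slc4a11 at 7.32 ± 0.485, Slc6a12 at 6.54 ± 0.669 and Nfat5 at 4.94 ± 1.38. The WT ranges of Cryab and Akr1b3 overlapped, but Cryab was the higher within each WT library. It had 621.6 against 370.7 in replicate 1 and 342.6 against 95.5 in replicate 2. The ranges also overlapped between Slc6a6 and Cldn4, Slc14a2 and Slc5a3, and Slc4a11 and Slc6a12. Within each of these pairs the order differed between the WT libraries. By the length of all exons together, Akr1b3 was lower, at 38.6 in WT, and stayed second. In G0APOL1 the per-length means were 117.6 for Cryab, 32.2 for Slc6a6, 3.44 for Slc14a2 and 1.27 for Slc6a12, the lowest. In G2APOL1 the same genes had 148, 27.6, 5.09 and 2.23.

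The genes did not all move in one proportion across libraries. The level of Slc4a11 per Slc14a2 stayed between 0.379 and 0.582 over the 6 libraries, and Cldn4 per Slc14a2 between 0.596 and 0.917. Cryab per Slc14a2 ranged from 7.56 to 12.1, a 1.61-fold range. The range was 2.21-fold for Slc6a12, 4.04-fold for Slc5a3, 4.80-fold for Nfat5 and 7.13-fold for Slc6a6. These ratios are of CPM and describe constancy across libraries, not levels between genes. Slc34a1, the phosphate transporter of the cortical proximal tubule, had 33.9 and 37.4 times the CPM of Slc14a2 in WT, 313.5 and 257.5 times in G0APOL1, and 191 and 199 times in G2APOL1.

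**Figure D3:**
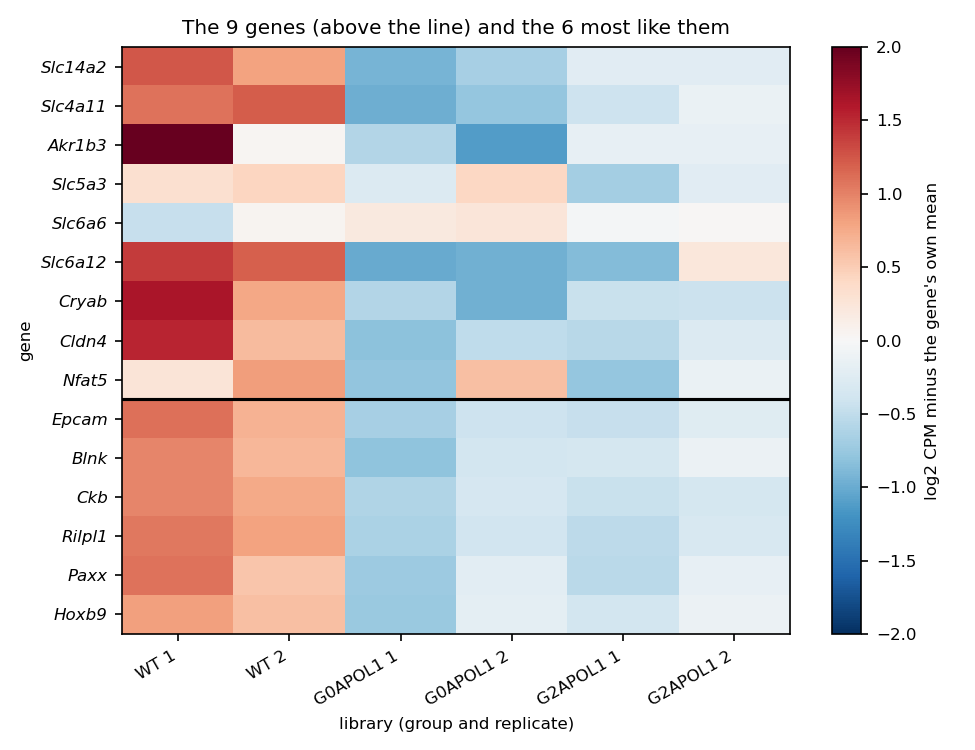
Heat map of log2 CPM minus the gene's own mean (colour scale, red higher and blue lower) in each of the 6 libraries, for the 9 genes above the line and the 6 genes most like their mean profile below it. Slc14a2, Slc4a11, Cryab and Cldn4 are red in both WT libraries and blue in all 4 transgenic ones, while Slc6a6 is palest and blue in WT replicate 1.

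The mean profile of the 9 genes was 1.00 and 0.66 in the WT libraries and between -0.64 and -0.15 in the transgenic ones, each gene centred on its own mean. By distance from this profile, the closest of the 9 were Slc14a2, with a root mean square difference of 0.216 on the log2 scale over the 6 libraries, and Cldn4 with 0.235. Akr1b3 (0.574) and Slc6a6 (0.798) were the farthest. Each of the 9 is part of the mean it is compared with, and the genes named next are not. Of other genes with a mean of at least 10 CPM, the most alike were Epcam (0.0606), Blnk (0.0871), Ckb (0.0968), Rilpl1 (0.0978), Paxx (0.108) and Hoxb9 (0.134). Epcam, an epithelial adhesion molecule, had 181 and 136.9 CPM in WT and between 52.8 and 71.0 CPM in the transgenic libraries.

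Other genes of the pathway were taken from lists and divided in the same data. Of 14 other genes of osmolyte synthesis, breakdown and transport, 4 rose and 2 fell in G2APOL1 and 3 rose and 3 fell in G0APOL1, with medians of 0.18 and 0.36. Over all 14386 genes tested, 657 were called higher and 521 lower in G2APOL1 against WT. In G0APOL1 against WT, 645 were called higher and 530 lower. These totals stand beside this list and the lists that follow. Sord, which turns sorbitol into fructose, rose by 2.19 ± 0.28 in G2APOL1 (edgeR adjusted p = 0.000853) and by 1.503 ± 0.28 in G0APOL1 (0.00574), the latter lost without G0APOL1 replicate 1 (0.0625). It had 378 and 228 CPM in WT, 1063 and 655 for G0APOL1, and 1417 and 1351 for G2APOL1. Chdh, which makes betaine aldehyde from choline, rose by 0.93 ± 0.18 in G0APOL1 (edgeR adjusted p = 0.00712) and by 0.71 ± 0.18 in G2APOL1 (0.0307), and missed the threshold without single libraries, at up to 0.0615 and 0.284. Isyna1, the first enzyme of myo-inositol synthesis, fell by 1.38 ± 0.20 in G2APOL1 (edgeR adjusted p = 0.00136) and by 1.05 ± 0.20 in G0APOL1 (0.00556).

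Of 10 chaperones and stress genes known to respond to hypertonicity, 5 fell in each comparison with WT, 1 rose in G2APOL1 and 0 in G0APOL1, with medians of -1.32 in G2APOL1 and -1.16 in G0APOL1. Hspb1, the small heat shock protein Hsp25, had 91.4 and 103.8 CPM in WT and between 21.7 and 27.4 in the transgenic libraries. It fell by 1.99 ± 0.22 in G2APOL1 (edgeR adjusted p = 0.000235) and by 1.89 ± 0.22 in G0APOL1 (0.000275). Hspa1a, an inducible Hsp70, fell by 1.79 ± 0.29 in G0APOL1 (edgeR adjusted p = 0.00269) and stood at -0.55 ± 0.28 in G2APOL1 (0.267). Sgk1, a kinase induced by salt and aldosterone, fell by 1.93 ± 0.29 in G2APOL1 (0.00298) and stood at 0.01 ± 0.28 in G0APOL1. Sgk1 also fell in G2APOL1 against G0APOL1, by 1.94 ± 0.29 (edgeR adjusted p = 0.0155), a call lost without G0APOL1 replicate 1, G0APOL1 replicate 2 or G2APOL1 replicate 1 (up to 0.0961). Of 5 small heat shock protein genes, Hspb1 fell in both groups and the lens crystallin Cryaa fell in G0APOL1 (-2.42 ± 0.43, adjusted p = 0.00411), with list medians of -1.45 and -1.89. Of 4 NFAT genes besides Nfat5, only Nfatc1 passed, in G2APOL1 (-1.53 ± 0.36, adjusted p = 0.0215), and it did not without a G2APOL1 library (up to 0.253).

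Of 12 genes of urine concentration, 4 fell in G2APOL1 and 5 in G0APOL1, and 0 rose. Aqp2, the vasopressin-regulated water channel, fell by 1.71 ± 0.28 in G0APOL1 (edgeR adjusted p = 0.00289) and by 1.58 ± 0.28 in G2APOL1 (0.00484; 0.0511 without a G2APOL1 library). Aqp4, a basolateral water channel, fell by 1.90 ± 0.20 in G0APOL1 (edgeR adjusted p = 0.000175) and by 0.78 ± 0.19 in G2APOL1 (0.0264), and was 1.12 ± 0.20 higher in G2APOL1 than in G0APOL1 (0.0251). The last 2 calls of Aqp4 were lost on leaving out 1 library, with adjusted p up to 0.340 and 0.276. Of 9 volume regulators, 1 rose and 2 fell in G2APOL1, and 2 rose and 1 fell in G0APOL1. Lrrc8d, a subunit of the volume-regulated anion channel, rose by 1.25 ± 0.20 in G0APOL1 (0.0022) and by 0.95 ± 0.20 in G2APOL1 (0.0106; up to 0.170 without a G2APOL1 library).

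Of 8 other claudins tested, the paracellular cation channel Cldn2 of the proximal tubule and thin limb was the only one that rose in either group, by 1.82 ± 0.18 in G0APOL1 (edgeR adjusted p = 0.000139) and 1.51 ± 0.18 in G2APOL1 (0.000485). Cldn8 of the distal nephron and collecting duct fell by 1.70 ± 0.26 in G2APOL1 (edgeR adjusted p = 0.00216) and by 1.43 ± 0.26 in G0APOL1 (0.0051; 0.0511 without G0APOL1 replicate 2). Cldn19, of the thick ascending limb, passed in G0APOL1 (-0.98 ± 0.27, adjusted p = 0.0429) and did not without single libraries (up to 0.213).

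Markers of the kidney's zones were set beside the 9 genes. Of all 14386 genes tested, 645 were called higher than WT in G0APOL1 and 657 in G2APOL1. Markers of the cortex were the higher ones in the transgenic groups. Their summed level, over 8 genes, was 1978 to 2210 CPM in WT, 4467 to 4914 in G0APOL1 and 4464 to 4601 in G2APOL1; 3 rose in G0APOL1, 2 rose in G2APOL1 and 0 fell, with medians of 1.06 and 0.79. Slc34a1 makes up most of that sum. It rose by 1.16 ± 0.22 in G0APOL1 (edgeR adjusted p = 0.00656) and by 1.19 ± 0.22 in G2APOL1 (0.00614; up to 0.0946 without a G2APOL1 library).

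The thick limb, which runs through outer medulla and cortex, had summed levels of 3504 to 3654 CPM in WT, 3815 to 3828 in G0APOL1 and 3175 to 3382 in G2APOL1. Of its 5 markers, Ppp1r1a fell in both comparisons, and both calls were lost on leaving out single libraries. The other 4 did not pass, and the medians of the 5 were 0.09 in G0APOL1 and 0.07 in G2APOL1. These medians cover values in both directions. Slc12a1 stood at -0.58 ± 0.24 in G0APOL1 and -0.72 ± 0.24 in G2APOL1, and Cldn16 at 1.07 ± 0.48 and 1.35 ± 0.48. The 4 markers of the straight proximal tubule, in the outer stripe, had medians of -0.15 and -0.05, and 1 of them, Slc7a13, rose in both groups (up to edgeR adjusted p = 0.282 and 0.164 without single libraries).

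The thin limbs, which reach into the inner medulla, had 5 markers, of which Slc4a11 is one. In each transgenic group 4 of them fell, with medians of -1.97 in G0APOL1 and -1.44 in G2APOL1. Their summed level was 298.8 to 321.7 CPM in WT, 77.6 to 86.8 in G0APOL1 and 103 to 114.5 in G2APOL1. Slc14a1, the urea transporter of the descending vasa recta, had 24.4 and 23.1 CPM in WT, 5.44 and 1.77 for G0APOL1, and 4.97 and 6.62 for G2APOL1. It fell by 2.70 ± 0.49 in G0APOL1 (edgeR adjusted p = 0.00503) and by 2.03 ± 0.47 in G2APOL1 (0.0192; up to 0.164 without a G2APOL1 library). The other vasa recta marker, Aqp1, a water channel that the proximal tubule also makes, did not pass, with 0.14 ± 0.21 in G0APOL1 (edgeR adjusted p = 0.770) and 0.37 ± 0.21 in G2APOL1 (0.325). Of 8 principal cell markers, from cortex to papilla, 4 fell in G0APOL1 and 3 in G2APOL1. Their summed levels were 2013 to 2788 CPM in WT, 745.5 to 1160 in G0APOL1 and 1113 to 1149 in G2APOL1. In WT, Aqp2 made up most of that sum, with 2045 and 1251 CPM. Scnn1b (-0.405 ± 0.30 in G0APOL1 and -0.30 ± 0.29 in G2APOL1), Scnn1g (0.07 ± 0.32 and 0.31 ± 0.32) and Hsd11b2 (-0.21 ± 0.24 and -0.03 ± 0.24) did not pass.

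**Figure D4:**
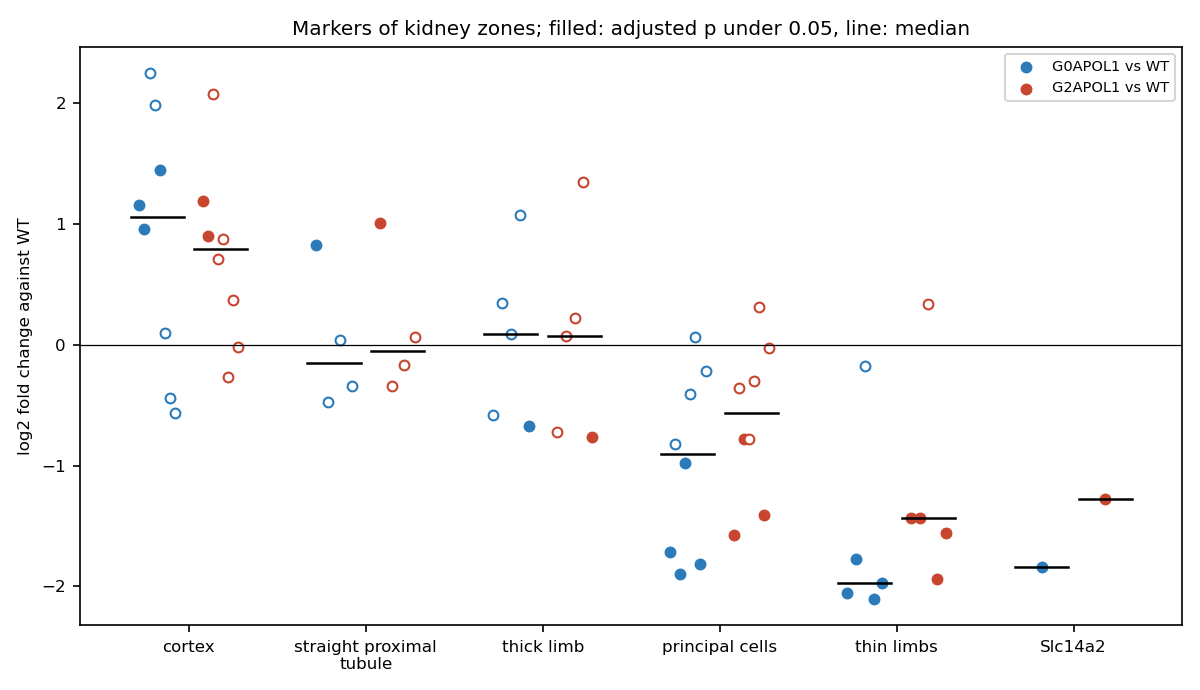
Log2 fold changes against WT of the markers of each kidney zone (points, filled where the adjusted p was under 0.05, with medians as lines), with the cortex first and the inner medullary marker Slc14a2 last. Principal cells, whose markers run from cortex to papilla, have no single depth in this order. Medians in G0APOL1 and G2APOL1 were 1.06 and 0.79 in the cortex, -0.15 and -0.05 in the straight proximal tubule, 0.09 and 0.07 in the thick limb, -0.90 and -0.57 in principal cells and -1.97 and -1.44 in the thin limbs, beside -1.84 and -1.27 for Slc14a2, so the order was not an even gradient.

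Markers of neighbouring cell types also differed. Of 7 urothelium genes, of the papilla's surface and the pelvis, 4 fell in each group, and their summed level was 108.8 to 182.6 CPM in WT, 14.5 to 26.7 in G0APOL1 and 14.0 to 22.4 in G2APOL1. Krt20, one of them, had 0 counts in both G2APOL1 libraries. Upk2, a uroplakin, fell by 4.596 ± 0.59 in G0APOL1 (edgeR adjusted p = 0.000536) and by 2.51 ± 0.51 in G2APOL1 (0.00935, lost without WT replicate 2 or G2APOL1 replicate 1). Of 5 endothelial markers 4 fell in each group, with sums of 263.7 to 287.2 CPM in WT, 104.1 to 124.2 in G0APOL1 and 139.2 to 140.5 in G2APOL1. Of 5 interstitial markers 2 fell in each group, with sums of 171.6 to 397.5 CPM in WT and 102.2 to 126.4 in the transgenic libraries. Whether the libraries took in different amounts of inner medulla was not tested, and the amount of that zone in the tissue and its RNA level per cell cannot be told apart here. All 6 libraries held markers of the cortex and the thick limb, and Slc14a2 was detected in each. Counts per gene do not separate Slc14a2 of the inner medullary collecting duct from that of the thin descending limb.

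Total counts per library ran from 8490396 to 11800932. Transcripts of the mitochondrial genome took 12.6% to 21.1% of them, with the highest share in WT replicate 2. Replicates differed more than counting noise in every group, and most in WT, with a chi-square per degree of freedom over genes of 47.9 there, 21.5 in G0APOL1 and 10.1 in G2APOL1.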

How the data were processed

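The authors deposited a table of expected counts, that is estimated reads per gene, with 1 column per library and no scaling. Per the labels, RNA came from 10 mg of frozen kidney (RNeasy, RNA integrity number at least 6) and was sequenced in pairs of 150 bases from NEBNext Ultra libraries. The submitters' processing notes list the build mm10 and Cell Ranger ARC 2.0.2 with no role; aligner and counter: not given in the sources used here. Of 54146 identifiers, 54079 matched GENCODE M21 (GRCm38), which gave symbols and positions, and 67 did not.

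Expected counts were rounded to whole numbers (1.39% to 1.55% of values per library were not whole), filtered with filterByExpr by group (14386 genes left), scaled with TMM and fitted together with edgeR 4.0.16 in R 4.3.3 (robust glmQLFit, 3 residual degrees of freedom, common biological coefficient of variation 0.315), so that the 3 groups share one estimate of the spread. Each comparison used the two-sided quasi-likelihood test with Benjamini-Hochberg adjustment over all genes tested and a threshold of 0.05. Standard errors were derived from the fold change and the root of the F statistic. The procedure was tested on simulated data.

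The 9 genes and the lists were chosen with earlier results of these data known. Named besides the 9 are up to 3 genes of each list with the smallest p in any comparison, genes overlapping a member, and the 6 genes with a mean of at least 10 CPM whose profile was most like the mean of the 9, without predicted models. A few genes that these rules take are left unnamed. Copies were found with minimap2 2.31 (at least 95% identity over at least 50% of a transcript). Promoters came from RefSeq. Alternatives were DESeq2 size factors, other filters on low counts, DESeq2 1.42.0, limma-voom (limma 3.58.1), only the 4 libraries compared, a replicate block, no mitochondrial genes and each library left out; summing Akr1b3 with its copies was added after seeing the data. The human transgene is not analysed here.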

Additional observations from a re-analysis of the deposited data

How the results depend on the processing

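With 2 libraries per group and 3 residual degrees of freedom, single libraries decide many calls, and a gene that misses the threshold is not shown to be alike in the groups. In G2APOL1 against WT, 4 of the 9 genes passed; without single libraries this ranged from 1 (G2APOL1 replicate 1) to 6, and it was 7 with no filter on low counts. Over all genes the 1178 calls became 1806 with no filter and ranged from 338 to 1835 without single libraries. In G0APOL1 against WT, 5 of the 9 passed, and 4 to 7 without single libraries; the 1175 calls over all genes became 658 with only the 4 libraries compared and 599 to 1721 without single libraries. In G2APOL1 against G0APOL1, the 69 calls over all genes became 245 with no filter, 119 with only 4 libraries, 146 with DESeq2 and 27 to 150 without single libraries, and none of the 9 genes passed in any of these settings. Why the counts of calls moved between settings was not tested. Directions against WT held for all 9 genes in every alternative, apart from Slc6a6, which in G2APOL1 ranged without single libraries from -0.0546 (without WT replicate 1) to 0.46. Between the transgenic groups, Nfat5 ranged from -0.95 to 0.38 (without G0APOL1 replicate 2).

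Groups share replicate numbers, but same-numbered libraries did not deviate together (correlations of 0.0956, 0.0578 and 0.0426), so the numbers were not taken as pairs. With a replicate block, 7 of the 9 genes passed in G2APOL1 against WT (also Slc5a3 at adjusted p = 0.00629, Slc6a12 at 0.0332 and Nfat5 at 0.0102) and 5 in G0APOL1 against WT, with 1724 and 1618 calls over all genes, and 120 calls in G2APOL1 against G0APOL1.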

Other observations

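Gm38056, an uncharacterised gene model chosen after its values were seen, is 99.7% identical to 97.5% of an Akr1b3 transcript. The aligned part is only 26.9% of the transcript of Gm38056, and its counts may come from the rest. Gm38056 lies at 55440904-55445930 on chromosome 1 (GRCm38), a span that also holds the near-identical pseudogene Gm6644. It had 142.8 and 71.2 CPM in WT, 4.59 and 2.25 for G0APOL1, and 28.8 and 33.1 for G2APOL1, so the 3 groups did not overlap. It fell by 4.95 ± 0.41 in G0APOL1 and by 1.79 ± 0.34 in G2APOL1 against WT (edgeR adjusted p = 0.00988, and up to 0.113 without a G2APOL1 library), and was 3.16 ± 0.40 higher in G2APOL1 than in G0APOL1 (adjusted p = 0.00532). The near-identical copies together took 24.9% and 36.9% of the sum of Akr1b3 and these copies in WT. Their share was 5.19% and 3.85% for G0APOL1, and 24.0% and 25.7% for G2APOL1. Gm38056 held most of the copies' counts in every library, with 1440 and 648 counts in WT, so these shares are not all Akr1b3-like sequence. How reads were divided between Akr1b3 and its copies is not given in the sources used here, so neither gene's level can be separated with certainty.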
